A study of Mus musculus with 6 samples.

Results

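The transporters that carry amino acids and small peptides across cell membranes were compared between undifferentiated WT and Alkbh1-/- mouse embryonic stem cells (mESCs). They were taken as all genes of the solute carrier families Slc1, Slc3, Slc6, Slc7, Slc15, Slc36, Slc38 and Slc43, without *Slc38a4*. Of 66 such protein-coding genes considered in RefSeq, 48 had a named probe set, among 15357 named genes in all. *Slc15a3*, *Slc15a5*, *Slc36a4*, *Slc38a8*, *Slc38a11*, *Slc3a1*, *Slc6a5*, *Slc6a12*, *Slc6a14*, *Slc6a18*, *Slc6a20a*, *Slc6a20b*, *Slc6a21*, *Slc7a5*, *Slc7a11*, *Slc7a12*, *Slc7a14* and *Slc7a15* were not analysed here. The symbols deposited with the arrays are old, and by them alone only 17 genes would have been found, so that genes were named by their current RefSeq symbol.

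The series holds 3 arrays of WT and 3 arrays of Alkbh1-/- mESCs, all from the C57BL/6 background, at passage 8 and day 0 of differentiation, with no treatment. Alkbh1-/- cells carry a homozygous disruption of *Alkbh1*, which encodes a dioxygenase of the AlkB family. Cells of both genotypes were grown with leukemia inhibitory factor on irradiated mouse embryonic fibroblasts, in a medium to which nonessential amino acids and a glutamine source had been added. The labels do not say whether the arrays of a genotype came from separate cultures, so the p-values measure only the spread between these samples. They also do not distinguish several lines within a genotype, so that genotype and cell line cannot be told apart.

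Amino acids and peptides are charged or polar and cross membranes through carriers, each with its own set of substrates. Slc7 proteins carry cationic or large neutral amino acids, and several of them work only as the light chain of a pair with the heavy chain Slc3a2. Slc1 proteins carry glutamate, aspartate and small neutral amino acids, Slc38 proteins carry glutamine and other neutral amino acids, and Slc6 proteins carry glycine, proline, taurine, creatine and neurotransmitters with sodium. Slc36 proteins move small neutral amino acids with protons, Slc15 proteins do the same for di- and tripeptides, and most Slc43 proteins carry large neutral amino acids.

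Each value below is a log2 expression value after robust microarray analysis (RMA), which places all arrays on the same scale, and a gene is given by its brightest probe set. Single arrays have no values in the tables analysed here. Group means were computed from the difference and the mean in the authors' deposited table, and the standard error (SE) from the difference and the moderated statistic. A gene was called where the adjusted p from limma's moderated test was under 0.05 and the linear fold was over 1.5 (a log2 difference of 0.58). The median of all 33142 probe sets was 6.31, the lowest mean was 3.22 and the highest 14.67. How precisely a value is known depends on the number of arrays. *Alkbh1* itself went from 9.57 in WT to 4.69 in Alkbh1-/- mESCs, a log2 difference of −4.89 (SE 0.17, n = 3 arrays per genotype, adjusted p = 3.00e-05 in limma's moderated test). This gene was also used, with the class names, to set the direction of the comparison, so its sign is no separate check.

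Among the 48 transporters, 4 were upregulated and 2 were downregulated in Alkbh1-/- mESCs when compared with WT mESCs. The upregulated genes were *Slc38a5*, a glutamine carrier, *Slc6a8*, the creatine carrier, *Slc7a3*, a carrier of arginine and lysine, and *Slc36a1*, a proton-coupled carrier of small neutral amino acids. The downregulated genes were *Slc15a2*, a high-affinity peptide carrier, and *Slc7a7*, a light chain that exchanges cationic for neutral amino acids. Upregulated members made up 8.33% of the transporters, where 4.45% of all named genes were called higher, and downregulated members made up 4.17%, where 4.07% of all named genes were called lower. Of the upregulated genes, *Slc38a5*, *Slc6a8* and *Slc7a3* are X-linked, and 40.3% of X-linked genes were called higher. Among autosomal transporters 2.22% were called higher, beside 3.18% of autosomal genes. With an adjusted p under 0.05 and no fold threshold, 6 transporters were higher and 5 lower (12.5% and 10.4%), beside 7.69% and 8.37% of all named genes. In bulk RNA, fewer cells of a type and less RNA per cell cannot be told apart.

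**Figure D1:**
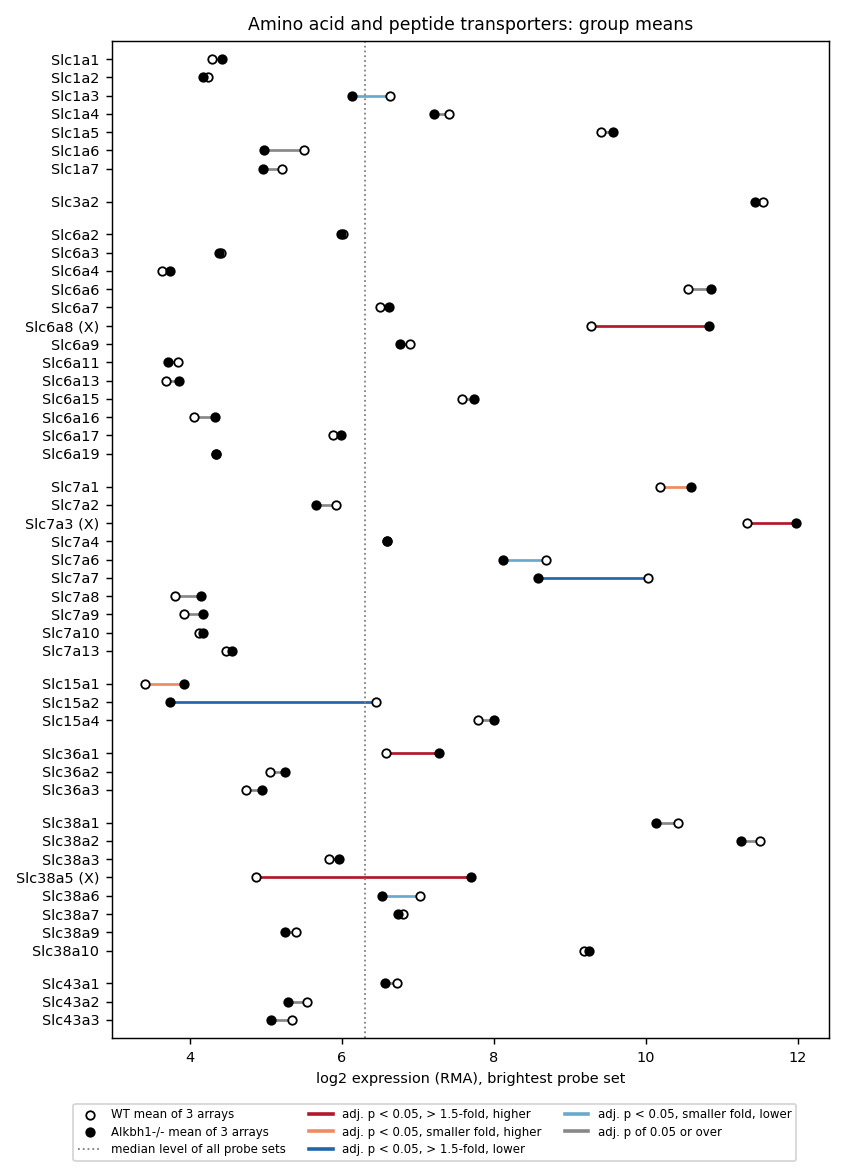
Mean log2 expression (RMA, horizontal axis) of each of the 48 transporters in WT (open points) and Alkbh1-/- mESCs (filled points), by family, with the dotted line at 6.31, the median level of all probe sets. The longest connecting lines belong to *Slc38a5*, which went from 4.87 to 7.70, and *Slc15a2*, which went from 6.45 to 3.74.

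Of the called genes, *Slc38a5*, *Slc36a1* and *Slc15a2* have a single transcription start in the RefSeq promoter table, and these promoters are printed to show the sequence before genes that moved in either direction. *Slc7a7* has 5 starts there. The upregulated genes *Slc6a8* and *Slc7a3* have no entry, so their promoters could not be searched. Each sequence covers 250 bases before and 50 bases after the start in assembly GRCm38.p6, on the strand of the gene, and capitals mark the E-box CACGTG, a core motif bound by basic helix-loop-helix factors such as Myc and Tfeb.

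*Slc38a5* promoter (chrX:8271131-8271430, plus strand): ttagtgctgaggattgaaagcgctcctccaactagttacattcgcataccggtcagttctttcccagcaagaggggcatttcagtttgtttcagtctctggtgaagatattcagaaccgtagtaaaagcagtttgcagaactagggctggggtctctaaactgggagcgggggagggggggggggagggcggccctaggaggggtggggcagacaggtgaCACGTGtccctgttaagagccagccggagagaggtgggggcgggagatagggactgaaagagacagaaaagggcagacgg
*Slc36a1* promoter (chr11:55204090-55204389, plus strand): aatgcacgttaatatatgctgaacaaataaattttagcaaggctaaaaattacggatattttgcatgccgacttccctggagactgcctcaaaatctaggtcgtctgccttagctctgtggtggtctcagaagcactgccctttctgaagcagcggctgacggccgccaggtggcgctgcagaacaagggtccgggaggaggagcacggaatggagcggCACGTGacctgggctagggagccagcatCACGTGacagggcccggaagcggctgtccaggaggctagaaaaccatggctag
*Slc15a2* promoter (chr16:36784913-36785212, minus strand): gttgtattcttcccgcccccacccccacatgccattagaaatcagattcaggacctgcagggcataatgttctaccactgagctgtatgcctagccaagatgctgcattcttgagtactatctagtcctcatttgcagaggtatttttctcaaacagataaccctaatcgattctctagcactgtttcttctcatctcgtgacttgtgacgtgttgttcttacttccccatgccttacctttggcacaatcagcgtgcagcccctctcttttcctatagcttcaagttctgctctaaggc

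The *Slc38a5* promoter holds 1 E-box, whose first base lies at −30 from the start, and the *Slc36a1* promoter holds 2, at −31 and −3. None was found in that of *Slc15a2*. Searched on both strands, CACGTG was in 7.15% of 32851 mouse promoters of this length. Counted by gene, with a match in any of its promoters, it was found for 8 of the 34 transporters in the table (23.5%). Only 2 of these 8 were called. It was found for 8.91% of 17492 protein-coding genes, and the share of the transporters describes a set chosen with results known. The amino acid response motif TGATGNAA, where N is any base, was in 3.97% of all promoters and, by gene, was found for 4.13% of protein-coding genes and for 2 transporters (5.88%), of which *Slc7a7* was called. None of the 3 printed sequences holds this motif, so no E-box there overlaps it. A match is a description of the sequence and not evidence of binding. The CpG count was 10 for *Slc38a5*, 15 for *Slc36a1* and 5 for *Slc15a2*, against a median of 7 over all promoters, and the share of G and C was 56.0%, 54.7% and 46.3%.

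Cationic amino acid carriers of the Slc7 family moved in both directions. *Slc7a3*, a uniporter of arginine, lysine and ornithine, went from 11.33 in WT to 11.98 in Alkbh1-/- mESCs, a log2 difference of 0.65 (SE 0.09, 95% interval 0.45 to 0.85, adjusted p = 0.00359 in limma's moderated test). In the deposited class comparison, the geometric mean of its linear intensity was 2574 in WT and 4038 in Alkbh1-/- mESCs. Linear intensities here and below were matched by value, so they are the same group means on another scale and no separate check. *Slc7a1*, the widely expressed carrier of the same substrates, went from 10.19 to 10.60, a log2 difference of 0.41 (SE 0.10, adjusted p = 0.0403), and its other probe set gave 0.43 (adjusted p = 0.0262). It passed the test and stayed under the fold threshold.

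The exchangers that pair with Slc3a2 to release cationic amino acids were lower. *Slc7a7*, whose loss in humans causes lysinuric protein intolerance, went from 10.03 in WT to 8.59 in Alkbh1-/- mESCs, a log2 difference of −1.45 (SE 0.13, 95% interval −1.75 to −1.14, adjusted p = 0.000872 in limma's moderated test). Its linear intensity was 1046 in WT and 384 in Alkbh1-/- mESCs. The second probe set of *Slc7a7* went from 8.15 to 6.92, a log2 difference of −1.23 (adjusted p = 0.00291), so that both probe sets were called. The suffix of the second one marks possible matches to other transcripts. *Slc7a6*, the closest relative of *Slc7a7* in function, went from 8.69 to 8.12, a log2 difference of −0.56 (SE 0.07, adjusted p = 0.00310), and its other probe set gave −0.47 (adjusted p = 0.00730). With a 1.48-fold difference it lay just under the fold threshold, as *Slc7a3* lay just over it with 1.57-fold.

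The heavy chain *Slc3a2*, the common partner of these light chains, had means of 11.54 in WT and 11.44 in Alkbh1-/- mESCs. The log2 difference of −0.10 had a 95% interval of −0.28 to 0.08 (adjusted p = 0.492 in limma's moderated test), which lies within a 1.5-fold change in either direction. The other 6 Slc7 genes did not pass the test and lay between −0.26 for *Slc7a2*, an inducible cationic carrier, and 0.34 for *Slc7a8*, a light chain for neutral amino acids. Of these, *Slc7a8*, *Slc7a9*, *Slc7a10* and *Slc7a13* had group means between 3.80 and 4.55, in the lower range of the array.

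**Figure D2:**
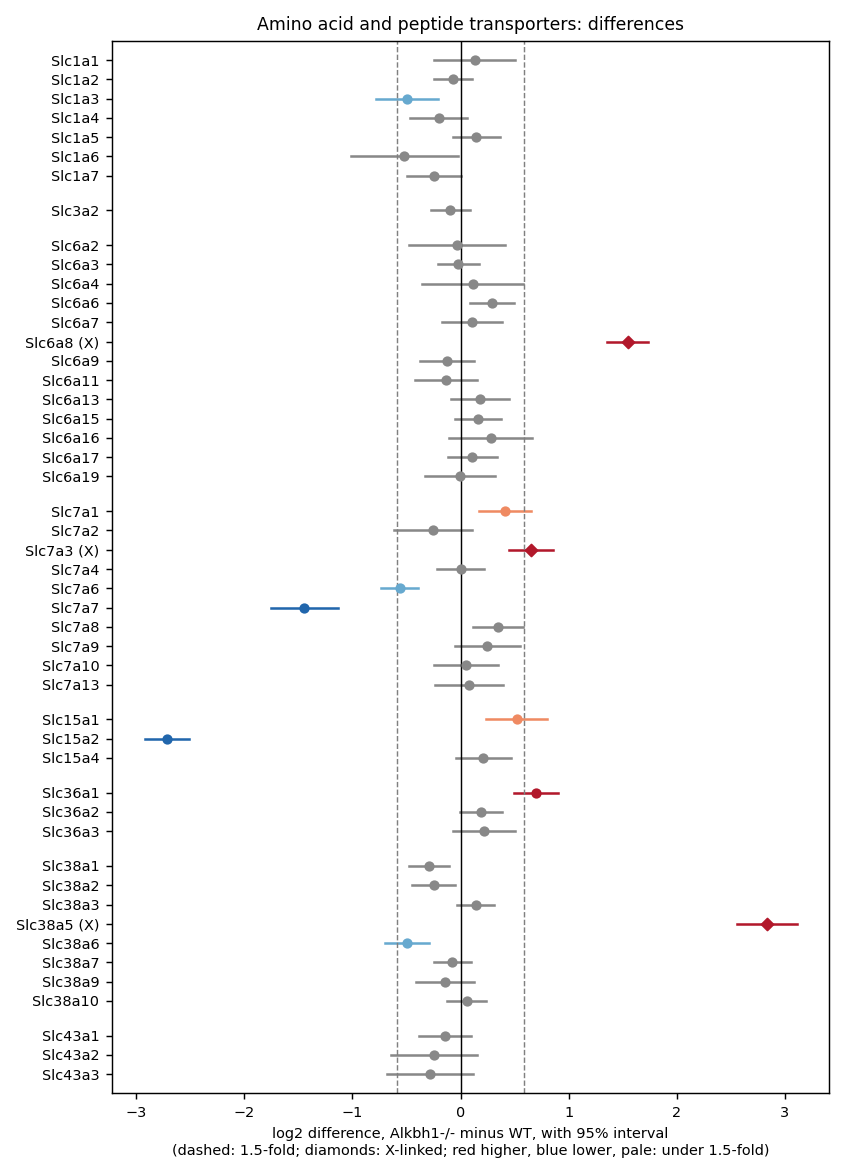
Log2 difference (Alkbh1-/- minus WT, horizontal axis) of each transporter with its 95% interval, by family, where dashed lines mark a 1.5-fold change, diamonds mark X-linked genes and full red or blue marks called genes. Most intervals cross 0, and those of *Slc38a5*, *Slc6a8*, *Slc7a7* and *Slc15a2* lie wholly outside the dashed lines.

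Among carriers of glutamine and other neutral amino acids, the Slc38 family held the largest rise. *Slc38a5*, a system N carrier of glutamine, histidine, serine and glycine, went from 4.87 in WT to 7.70 in Alkbh1-/- mESCs, a log2 difference of 2.83 (SE 0.12, 95% interval 2.55 to 3.11, adjusted p = 5.44e-05 in limma's moderated test). Its linear intensity was 29.3 in WT and 209 in Alkbh1-/- mESCs. This 7.12-fold difference was measured by a single probe set, and the WT mean lay under the median level of the array.

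*Slc38a6*, a less studied relative, went the other way, from 7.03 to 6.53, a log2 difference of −0.50 (SE 0.08, adjusted p = 0.0100), which passed the test below the fold threshold. *Slc38a2*, the system A carrier that cells induce when amino acids are short, had means of 11.51 in WT and 11.26 in Alkbh1-/- mESCs. The log2 difference was −0.25 (95% interval −0.44 to −0.05, adjusted p = 0.100), while another of its probe sets gave −0.52 (adjusted p = 0.0479) and the third gave −0.19 (adjusted p = 0.254). *Slc38a1*, also a system A carrier, had a log2 difference of −0.29 (95% interval −0.48 to −0.11, adjusted p = 0.0536) at its brightest probe set. The suffix of this probe set marks possible matches to other transcripts. The other probe set of *Slc38a1*, which has no such suffix, gave −0.14 (adjusted p = 0.396). *Slc38a1* and *Slc38a2* lie next to each other on chromosome 15, followed by *Slc38a4*, which the choice of genes leaves out and which had a log2 difference of −1.15 (adjusted p = 0.00251).

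The remaining Slc38 genes, *Slc38a3*, *Slc38a7*, *Slc38a9* and *Slc38a10*, had log2 differences from −0.14 to 0.14 and did not pass the test. *Slc38a9*, a lysosomal arginine sensor, had 6 probe sets with differences on both sides of 0, none of which passed. *Slc38a10* was measured by 8 probe sets, and these lay between −0.06 and 0.06.

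The Slc1 family, which takes up acidic amino acids and small neutral ones, had 5 of 7 members lower and a median log2 difference of −0.20. Only *Slc1a3*, a glutamate and aspartate carrier that is also a marker of glia, passed the test. Its brightest probe set went from 6.63 in WT to 6.13 in Alkbh1-/- mESCs, a log2 difference of −0.49 (SE 0.12, 95% interval −0.78 to −0.21, adjusted p = 0.0408 in limma's moderated test), and this probe set too has a suffix for possible cross-matches. All 5 probe sets of the gene were lower, and the dimmest pair, with log2 differences of −0.72 (adjusted p = 0.00577) and −0.81 (adjusted p = 0.0126), passed the fold threshold as well. *Slc1a5*, a main glutamine carrier of proliferating cells, had means of 9.41 and 9.56 and a log2 difference of 0.15 (95% interval −0.07 to 0.36, adjusted p = 0.357). *Slc1a4*, which carries alanine, serine and cysteine, had a log2 difference of −0.20 at its brightest probe set and 0.12 and 0.13 at the others, none of which passed the test. The lowest value of the family, −0.52 for the neuronal carrier *Slc1a6*, had a 95% interval of −1.02 to −0.03 and an adjusted p of 0.165. *Slc1a1*, *Slc1a2* and *Slc1a7* lay between −0.25 and 0.13.

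**Figure D3:**
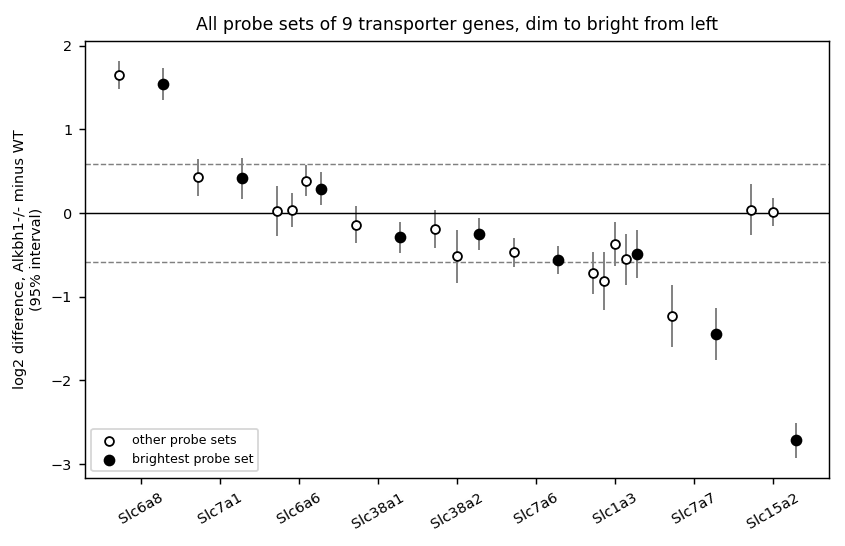
Log2 difference (Alkbh1-/- minus WT, vertical axis) with its 95% interval at every probe set of 9 transporters measured by several, ordered from dim to bright within a gene, with the brightest filled. Probe sets of *Slc6a8*, *Slc7a7* and *Slc1a3* share a direction, whereas those of *Slc15a2* give 0.04, 0.02 and −2.72.

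In the Slc6 family, 1 of the 13 genes described was called, as higher (7.69%, beside 4.45% of all named genes). *Slc6a8*, which imports creatine for the phosphocreatine energy buffer, went from 9.28 in WT to 10.83 in Alkbh1-/- mESCs, a log2 difference of 1.55 (SE 0.08, 95% interval 1.36 to 1.74, adjusted p = 0.000131 in limma's moderated test). The linear intensity was 623 in WT and 1817 in Alkbh1-/- mESCs, a 2.92-fold difference. The other probe set of the gene went from 8.26 to 9.91, a log2 difference of 1.65. *Slc6a6*, the taurine carrier, had means of 10.56 and 10.85 and a log2 difference of 0.29 (95% interval 0.09 to 0.49, adjusted p = 0.0687), while a dimmer probe set gave 0.39 (adjusted p = 0.0207) and the dimmest pair gave 0.04 (adjusted p = 0.832) and 0.03 (adjusted p = 0.928). The other 11 genes lay between −0.13 and 0.28. They include the GABA carriers *Slc6a11* and *Slc6a13*, the carriers of noradrenaline, dopamine and serotonin (*Slc6a2*, *Slc6a3* and *Slc6a4*), the glycine carrier *Slc6a9* and the proline carrier *Slc6a7*, and none passed the test.

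The peptide carriers of the Slc15 family held the lowest log2 difference of the transporters. *Slc15a2*, which takes up di- and tripeptides with protons, went from 6.45 in WT to 3.74 in Alkbh1-/- mESCs, a log2 difference of −2.72 (SE 0.09, 95% interval −2.92 to −2.51, adjusted p = 2.57e-05 in limma's moderated test). Linear intensity was 87.6 in WT and 13.3 in Alkbh1-/- mESCs. The Alkbh1-/- mean was near the lowest level of the array, and the level at which this probe set stops responding to RNA is not known, so the size of the fall is uncertain. The other probe sets of the gene, with means over all arrays of 4.24 and 4.67, had log2 differences of 0.04 (adjusted p = 0.887) and 0.02 (adjusted p = 0.923), so the fall rests on a single probe set. *Slc15a1*, the intestinal peptide carrier, went from 3.40 to 3.92, a log2 difference of 0.52 (SE 0.12, adjusted p = 0.0307), with both means in the lowest range of the array. *Slc15a4*, a lysosomal carrier of histidine and peptides, had a log2 difference of 0.21 and an adjusted p of 0.266.

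All 3 measured Slc36 genes, which lie on chromosome 11, had differences above 0, and *Slc36a1* was called. This carrier, which also sits in the lysosomal membrane, went from 6.58 in WT to 7.28 in Alkbh1-/- mESCs, a log2 difference of 0.70 (SE 0.09, 95% interval 0.50 to 0.90, adjusted p = 0.00255 in limma's moderated test). Linear intensity was 95.9 in WT and 155 in Alkbh1-/- mESCs. *Slc36a2* and *Slc36a3* had values of 0.19 and 0.22 and did not pass the test. In the Slc43 family, *Slc43a1* and *Slc43a2*, carriers of branched-chain amino acids, and *Slc43a3*, which carries purine nucleobases, had log2 differences of −0.15, −0.24 and −0.28, and none passed.

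Over all 48 transporters, 25 differences were above 0 and 23 below, with a median of 0.03 beside −0.03 for all named genes, and the median size of a difference was 0.21 beside 0.15. Of the 37 transporters that did not pass the test, 32 had a 95% interval within a 1.5-fold change in either direction. Of these, 14 lay at or above the median level of the array and 18 below it. At low levels a narrow interval does not show that a gene was unchanged. The mean over all arrays was at or above the median level of the array for 22 of the 48 transporters. Of these, 3 were called higher (13.6%) and 1 lower (4.55%), beside 5.07% and 4.82% of all named genes at or above that level. The higher ones include the X-linked *Slc6a8* and *Slc7a3*.

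Of the 6 called genes, *Slc38a5*, *Slc6a8* and *Slc7a3* are X-linked, and they are the only X-linked transporters measured. X-linked genes as a whole had higher values in Alkbh1-/- mESCs, with 416 of 524 above 0, a median log2 difference of 0.47 and 40.3% called higher. Of these X-linked genes, 36.1% had a larger difference than *Slc7a3*, whereas 3.63% exceeded *Slc6a8* and 1.53% exceeded *Slc38a5*. The highest log2 difference of all named genes, 7.90, was that of an X-linked gene. The lowest, −5.65, was that of a Y-linked gene, beside lowest values of −4.89 for autosomal and −1.45 for X-linked genes. The 2 genotypes thus also differed in the expression of sex-linked genes. The part of this difference, and of the shift of the X chromosome, in the results of *Slc38a5*, *Slc6a8* and *Slc7a3* was not tested. Among the 45 autosomal transporters, 1 was called higher (2.22%) and 2 lower (4.44%), beside 3.18% and 4.11% of all 14823 autosomal genes, and the median difference was 0.00. Of all autosomal genes, 2.56% had a higher value than *Slc36a1* and 0.405% a lower value than *Slc7a7*.

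**Figure D4:**
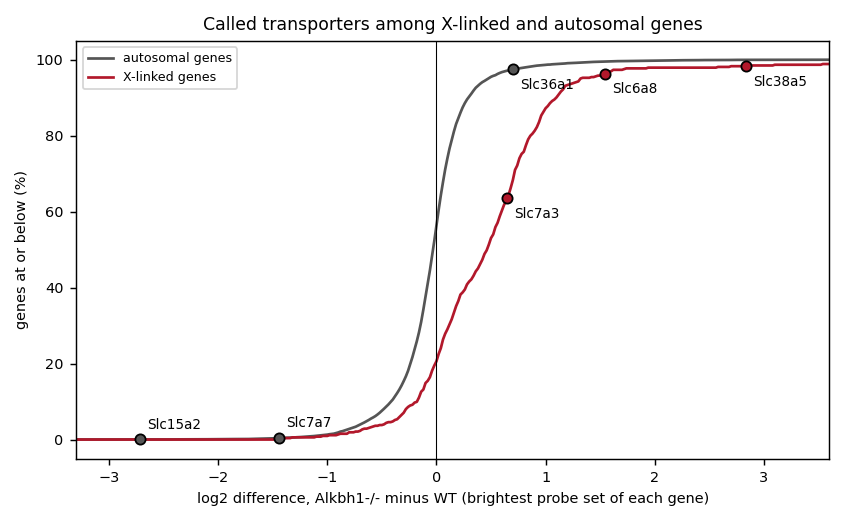
Share of genes (vertical axis, %) at or below each log2 difference (Alkbh1-/- minus WT, horizontal axis) for 14823 autosomal and 524 X-linked genes, with the 6 called transporters as points on the curve of their class. The X-linked curve lies to the right of the autosomal one, *Slc7a3* sits in its middle range, and *Slc15a2* and *Slc7a7* sit in the low tail of the autosomal curve.

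Fibroblast markers, which can come from the feeder layer, were lower in Alkbh1-/- mESCs for 27 of 28 genes, with a median log2 difference of −0.77 and a median SE of 0.32. Their median group mean was 8.70 in WT, where they ran from 4.02 to 12.37, and 7.81 in Alkbh1-/- mESCs, where they ran from 3.72 to 11.87. After adjustment none passed limma's moderated test, whereas before adjustment 16 (57.1%) were lower with a p under 0.05, beside 17.7% of all named genes. All 10 markers of mESCs were at or above the median level. Of these, 9 were higher in Alkbh1-/- mESCs, and 2 were called higher (20%, beside 4.45% of all named genes), *Tcl1* with 2.25 and *Nanog* with 1.10. At adjusted p alone, 5 passed higher (50%, beside 7.69% of all named genes) and 1 lower (10%, beside 8.37%). The lower one was *Utf1* with −0.49 (adjusted p = 0.0369 in limma's moderated test). All 8 markers of extraembryonic endoderm lay below the median level and ranged from −0.92 to 0.88. *Sox7* was called higher at 0.88 (12.5% of the list, beside 4.45% of all named genes). *Cubn* passed the test lower at −0.55 (12.5% of the list, beside 8.37% of all named genes). Of 4 measured trophectoderm markers *Krt7* was called lower (25%, beside 4.07% of all named genes). The part of feeder RNA or other cells in the lower values of *Slc15a2*, *Slc7a7*, *Slc7a6*, *Slc38a6* and *Slc1a3* was not tested.

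Genes that respond to, sense or use the carried amino acids were described from lists. The 25 targets and effectors of Atf4, the transcription factor of the amino acid response, ran from −0.31 to 0.55 on the log2 scale with a median of 0.06. None passed limma's moderated test, and 7 (28.0%) had an unadjusted p under 0.05, 5 of them higher and 2 lower, beside 31.6% of all named genes. Of 25 measured genes of amino acid sensing and the growth kinase complex mTORC1, 1 was called lower (4%, beside 4.07% of all named genes) and none higher. It was *Rragd*, a GTPase that brings the complex to lysosomes, with a log2 difference of −0.71 (adjusted p = 0.00887). Below the fold threshold, *Mtor*, the kinase itself, and the GTPase *Rragc* passed with 0.45 and 0.46, and *Sesn3* with −0.36. At adjusted p alone, 8% of this list passed higher and 8% lower, beside 7.69% and 8.37% of all named genes.

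Of 32 measured genes of amino acid metabolism, 2 were called higher (6.25%, beside 4.45% of all named genes) and 4 lower (12.5%, beside 4.07%), with a median of −0.07. *Ckb*, the creatine kinase that uses the substrate of *Slc6a8*, went from 10.95 in WT to 12.13 in Alkbh1-/- mESCs, a log2 difference of 1.18 (adjusted p = 0.000592). *Gatm*, the enzyme of the first step of creatine synthesis, went from 4.80 to 3.88, a log2 difference of −0.92 (adjusted p = 0.000796). *Bcat1*, which transaminates branched-chain amino acids, was called higher with 0.84 (adjusted p = 0.00148), and *Gldc*, of the glycine cleavage system, was called lower with −0.71 (adjusted p = 0.00172). *Gclm*, of glutathione synthesis, and *Prodh*, of proline breakdown, were called lower with log2 differences of −0.64 each. Among 14 measured carriers of other families, 1 was called lower (7.14%, beside 4.07% of all named genes). It was *Slc37a4* with −0.64, although its substrate is glucose 6-phosphate rather than an amino acid. The cystine carrier *Ctns* and the aspartate and glutamate carrier *Slc25a13* passed with 0.49 and 0.35 (14.3%, beside 7.69% of all named genes).

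**Figure D5:**
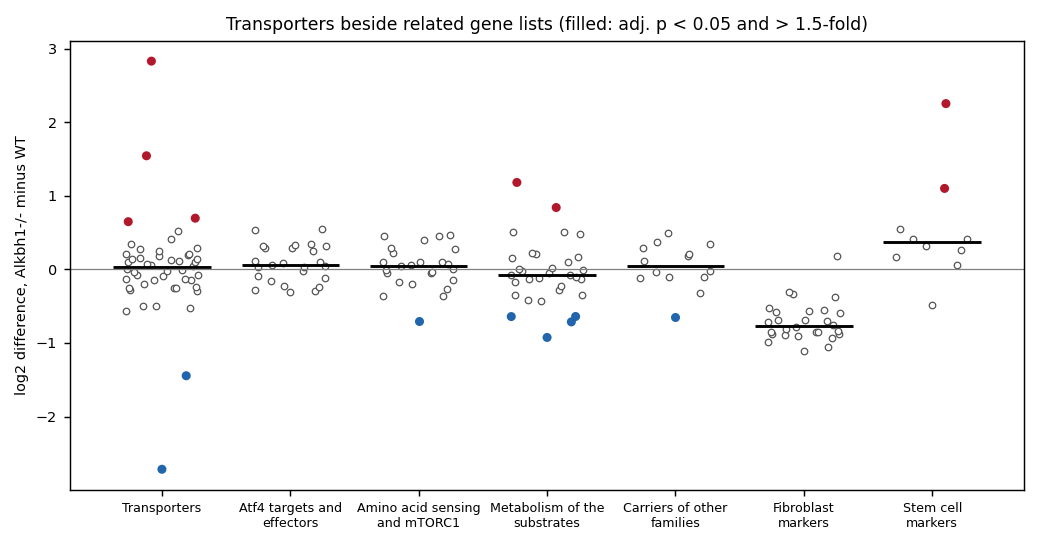
Log2 difference (Alkbh1-/- minus WT, vertical axis) of the 48 transporters beside genes of 4 related lists and 2 marker lists, where each point is a gene, filled points are called and bars are medians. The medians of the transporters and the 4 related lists lie between −0.07 and 0.06, that of fibroblast markers at −0.77 and that of mESC markers at 0.37.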

How the data were processed

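Total RNA of 3 WT and 3 Alkbh1-/- samples was hybridized to Affymetrix Mouse Genome 430 arrays, and the authors normalized them by RMA. The authors' deposited table gives, for 33142 probe sets chosen by a filter not given in the sources used here, log2 values (the difference and the mean over all arrays), a score (the moderated statistic, of opposite sign) and p-values. The deposited class comparison gives the geometric mean intensity per genotype and their ratio for 4326 entries, of which 4261 matched the table by value (mean within 1e-06 and difference within 0.0001) and 8 by identifier. It was therefore joined by value. These are values of the authors' own comparison, which stood in for the planned fit to single arrays. The table's direction was taken from the class names and from *Alkbh1*.

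The SE was the size of the difference over that of the statistic, and p-values were adjusted over all probe sets by the Benjamini-Hochberg method. Prior degrees of freedom (3.14) and prior variance (0.0160) were recovered with limma 3.58.1 in R 4.3.3, tested on simulated data, for 95% intervals, the trend option, limma's treat and Student's statistic. Python 3.11.15, pandas 2.3.3 and matplotlib 3.10.9 were used. RefSeq genes of GRCm38.p6 named 28205 probe sets (85.1%), and 3 opposite-strand genes were left out. A further gene of these families is not reported here and is in no count of transporters. A deposited symbol Slc3a1 (3 probe sets) belongs by its gene identifier to *Prepl*, which is no transporter here. The transporters and all lists were chosen with earlier results of these data known. Called genes and the transporters with the 3 largest means of the others were named by rule, and those that passed the adjusted p alone after their values were seen. Alternatives covered the fold threshold, the test, the choice of probe set, sex chromosomes, low values, centring and naming.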

Additional observations from a re-analysis of the deposited data

How the results depend on the processing

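Against 4 transporters called higher, 2 were called at a log2 difference over 1.5 and 2 by limma's treat, which dropped *Slc7a3* and *Slc36a1*. With probe sets at or above the median level the count was 3, without *Slc38a5*. The count was 1 without sex-linked probe sets, and, in alternatives chosen after seeing the data, 1 by deposited symbols alone and 1 among autosomal genes. Against 2 called lower, the count was 5 with no fold threshold and 1 at a log2 difference over 1.5, with the median of all probe sets of a gene or with probe sets at or above the median level. With no fold threshold the mTORC1 list gave 2 higher and 2 lower (8% and 8%). Amino acid metabolism gave 5 higher and 6 lower (15.6% and 18.8%), and carriers of other families 2 higher and 1 lower (14.3% and 7.14%). The shares of all named genes were 7.69% and 8.37%. The trend option and Student's statistic kept the call of all 48 transporters at adjusted p and fold together. At adjusted p alone, *Slc6a6* (0.0166), *Slc38a1* (0.0126) and *Slc38a2* (0.0217) passed with the trend option, and *Slc1a3* (0.130), *Slc7a1* (0.106) and *Slc15a1* (0.110) did not pass with Student's statistic. Of 38 further probe sets of transporters, 21 kept direction and call, 2 dimmer ones of *Slc1a3* were newly called, and 15 had the opposite sign, with log2 differences of 0.12 and 0.13 for *Slc1a4*, −0.16 for *Slc1a5*, 0.0155 for *Slc6a9*, 0.0399 and 0.0157 for *Slc15a2*, −0.0184 for *Slc38a3*, 0.14, 0.19, 0.0012 and 0.18 for *Slc38a9*, and −0.0572, −0.0456, −0.0400 and −0.0048 for *Slc38a10*. Centring on the median of all probe sets turned *Slc6a19* to 0.0022. The cause of these shifts was not tested. No paired analysis was possible because the tables carry no values of single arrays, and for the same reason leaving out each replicate was not run.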
